A study of Homo sapiens with 26 samples.

Results

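The messenger RNA of 49 kinetochore and spindle checkpoint genes was followed in 3 human cancer cell lines and in clones of them that had doubled their genome. The genes were taken by symbol from the deposited table of 58735 genes, and all 49 were found there. HCT116 and DLD1 are colon cancer lines and CAL51 is a triple negative breast cancer line. To make tetraploid (4N) cells, division of the cell body was blocked over 20 hr. HCT116 and CAL51 received blebbistatin, a myosin inhibitor, at 75 µM, and DLD1 received dihydrocytochalasin, which acts on actin, at 1.5 µg/mL. The cells recovered for 48 hr, and single cells were grown into clones by limiting dilution. The study then set 4N clones of small cell and nuclear size beside 4N clones of large size. Each library was 1 clone or 1 parental culture, all in medium with 10% fetal bovine serum. Every line contributed 1 parental library and 2 diploid (2N) clones. HCT116 added 3 small and 3 large 4N clones, DLD1 added 3 small and 4 large, and CAL51 added 1 small and 3 large. The parental and 2N libraries carry the genotype 2N in the labels, which do not say separately whether the 2N clones had met the drug. HCT116 and CAL51 shared drug and dose, while in a difference between DLD1 4N clones and those of either other line the parts of drug and line cannot be told apart.

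The kinetochore is the protein structure that forms on each centromere and holds the chromosome to spindle microtubules in mitosis. Centromeric chromatin, marked by the histone variant CENP-A, carries an inner layer that stays on the centromere through the cell cycle, the constitutive centromere network. In mitosis an outer layer of KNL1, the MIS12 complex and the NDC80 complex is built on it, and this layer binds microtubules. A kinetochore without microtubules activates the spindle checkpoint, in which TTK and BUB1 kinases recruit MAD1L1 and MAD2L1. MAD2L1, BUB1B and BUB3 then hold CDC20, the activator of the anaphase-promoting complex, and delay the separation of sister chromatids. Most genes of the outer layer and the checkpoint are transcribed in G2 and mitosis, so in a culture their mRNA also follows the share of cells in those phases.

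The libraries held 23.5 to 44.5 M reads in genes, with a median of 32.5 M. Levels are given as FPKM, fragments per kilobase of a gene and per library size, and 1 read in a gene of 1 kb was worth 0.0246 to 0.0400 FPKM. Mitochondrial genes took 2.42 to 10.1% of the reads. Of the markers of colorectal epithelium, a median of at least 1 FPKM was reached by 8 of 12 in DLD1, 6 of 12 in HCT116 and 4 of 12 in CAL51. CDX1, an intestinal transcription factor, was at 0 in 9 of 9 HCT116 and 7 of 7 CAL51 libraries. Its median in DLD1 was 0.0265 FPKM. CDX2, of the same list, had medians of 5.69 FPKM in HCT116, 49.4 in DLD1 and 0.101 in CAL51. Of the breast epithelium markers, 4 of 9 reached a median of 1 FPKM in each line. The immune and endothelial lists had 0 such markers in each line. Of 6 fibroblast markers, 0 reached it in DLD1, 1 in HCT116 (COL1A1) and 1 in CAL51 (PDGFRB). In CAL51 PDGFRB had a median of 12.4 FPKM and the 6 markers summed to between 0.851 and 46.9 FPKM, while DCN was at 0 in 7 of 7 libraries, and the part of these genes in the results was not tested. A few libraries stood apart in the members themselves. CAL51 large clone 1 was the lowest of its 7 libraries for 33 of the 49 genes, DLD1 2N clone 2 the lowest of its 10 for 29, and HCT116 large clone 3 the lowest of its 9 for 17. The last was mixed, since it was also the highest of its line for 10 members. HCT116 2N clone 1 was the lowest for 13 and had the lowest mean over the members in HCT116 (3.31 in log2, against 3.35 in large clone 3).

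All 49 genes were expressed, and 48 had at least 1 FPKM in all 26 libraries. The exception was CENPP, a subunit of the constitutive centromere network, at 0.338 to 1.13 FPKM, which reached 1 FPKM in 4 libraries and never had fewer than 108 reads. CDC20 was the most abundant, with a mean of 156 FPKM and a range from 111 FPKM in an HCT116 2N clone to 213 in DLD1 large clone 1. BIRC5, the survivin subunit of the chromosomal passenger complex, followed with a mean of 55.1 and a range of 46.5 to 70.2 FPKM. CENPC, which links CENP-A chromatin to the outer layer, was the lowest after CENPP at a mean of 1.95 FPKM. By role, the means of the 4 passenger complex genes lay between 26.5 and 55.1 FPKM, those of the 9 outer kinetochore genes between 6.004 and 12.2, those of the 4 corona and docking genes between 6.50 and 47.1, and those of the 13 centromere network genes between 0.659 and 30.3. CENPW, a histone-fold subunit, was at the top of the network genes. Over all libraries the highest value of a gene was between 1.51 times (BIRC5) and 6.92 times (PMF1) its lowest.

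**Figure D1:**
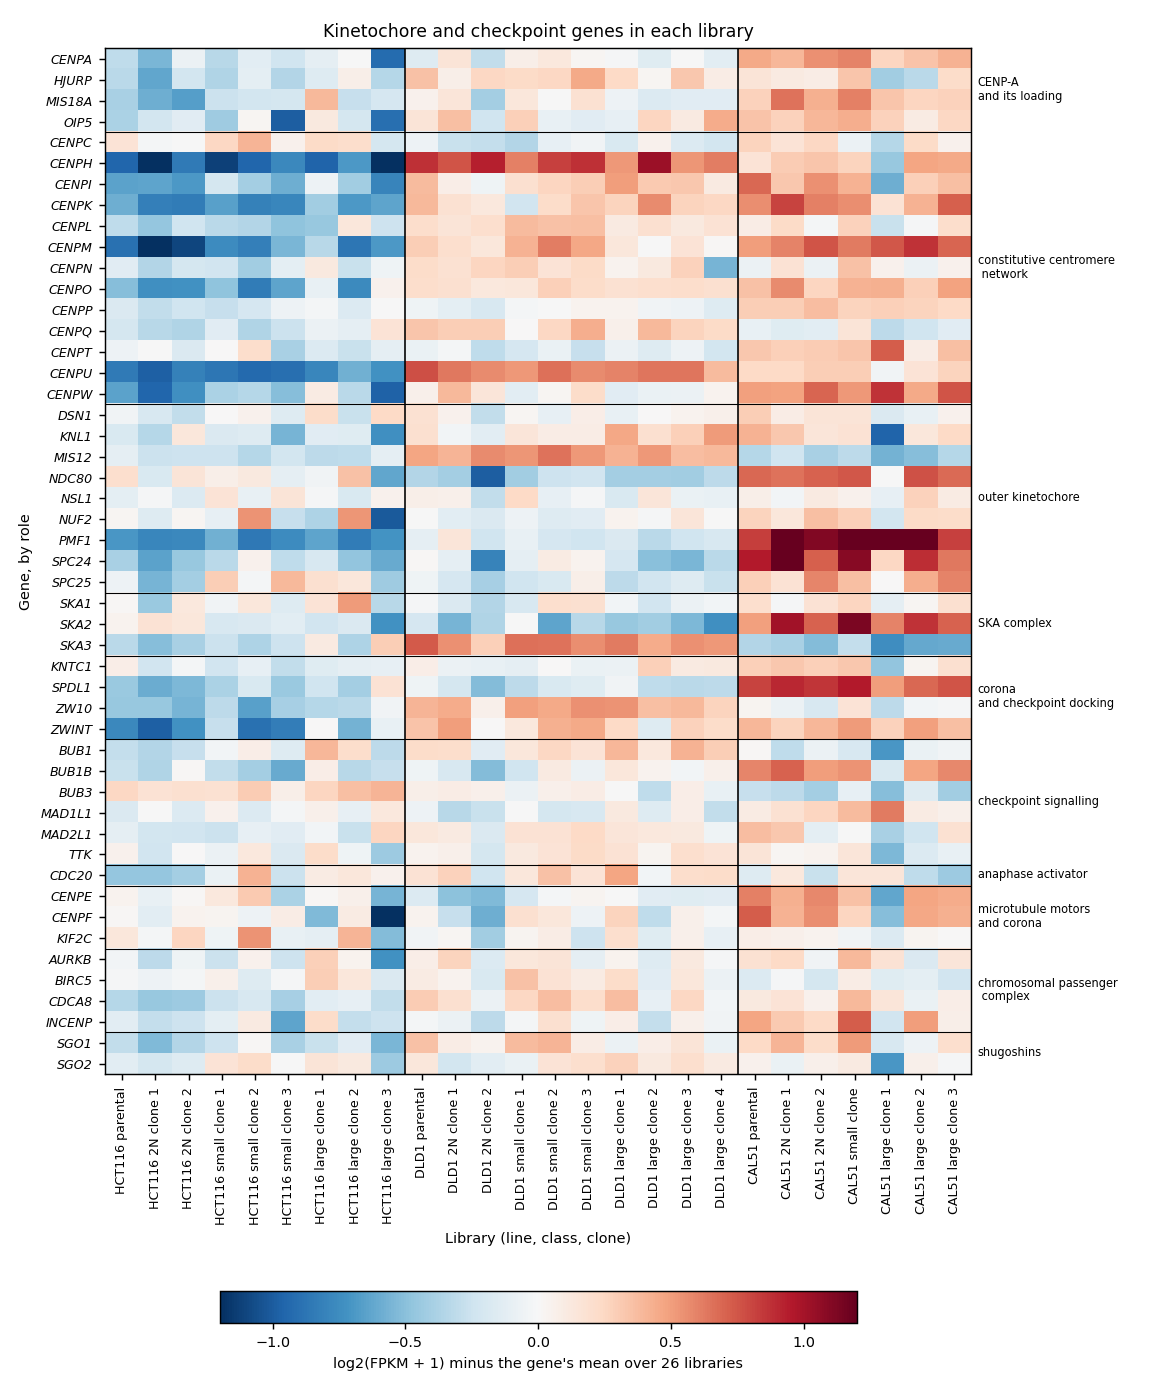
Each row is 1 of the 49 genes, grouped by role, and each column 1 of the 26 libraries. Colour gives log2(FPKM + 1) minus the mean of that gene over the 26 libraries, and values beyond the ends of the scale take the end colour. The main blocks of colour follow the 3 lines, with HCT116 low in most of the centromere network, and CAL51 large clone 1 appears as a column that is lower than its neighbours in many rows.

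The widest differences lay between the lines. Compared with HCT116, 23 members were higher and 4 lower in DLD1, and 30 were higher and 1 lower in CAL51. Compared with DLD1, 17 members were higher and 8 lower in CAL51. Lines differ at most genes: of all 14835 genes tested, 63.7% passed the threshold between DLD1 and HCT116 (30.8% higher and 33% lower in DLD1), 64% between CAL51 and HCT116 (32.6% higher and 31.5% lower in CAL51) and 61% between CAL51 and DLD1 (32% higher and 29% lower in CAL51). The total share of members that differed was therefore no larger than among all genes, while the direction was mostly towards higher levels than in HCT116. The median member differed by 0.22 on the log2(FPKM + 1) scale between DLD1 and HCT116, by 0.43 between CAL51 and HCT116 and by 0.16 between CAL51 and DLD1, against 0.00, 0.02 and 0.01 for all genes tested. Other G2 and mitosis genes, 34 tested genes of a list that holds no member, had medians of 0.07, 0.44 and 0.27 in these comparisons. Of that list 11 were higher and 3 lower in DLD1 than in HCT116, 20 higher and 3 lower in CAL51 than in HCT116, and 16 higher and 0 lower in CAL51 than in DLD1, and its part in the differences of the members was not tested. The test throughout was limma's moderated test on log2(FPKM + 1), with p adjusted over all genes tested and a threshold of 0.05. These differences are between single lines, and with 1 breast line the part of the tissue cannot be told apart from that of the line. The comparisons share libraries in pairs, so their counts are not independent.

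**Figure D2:**
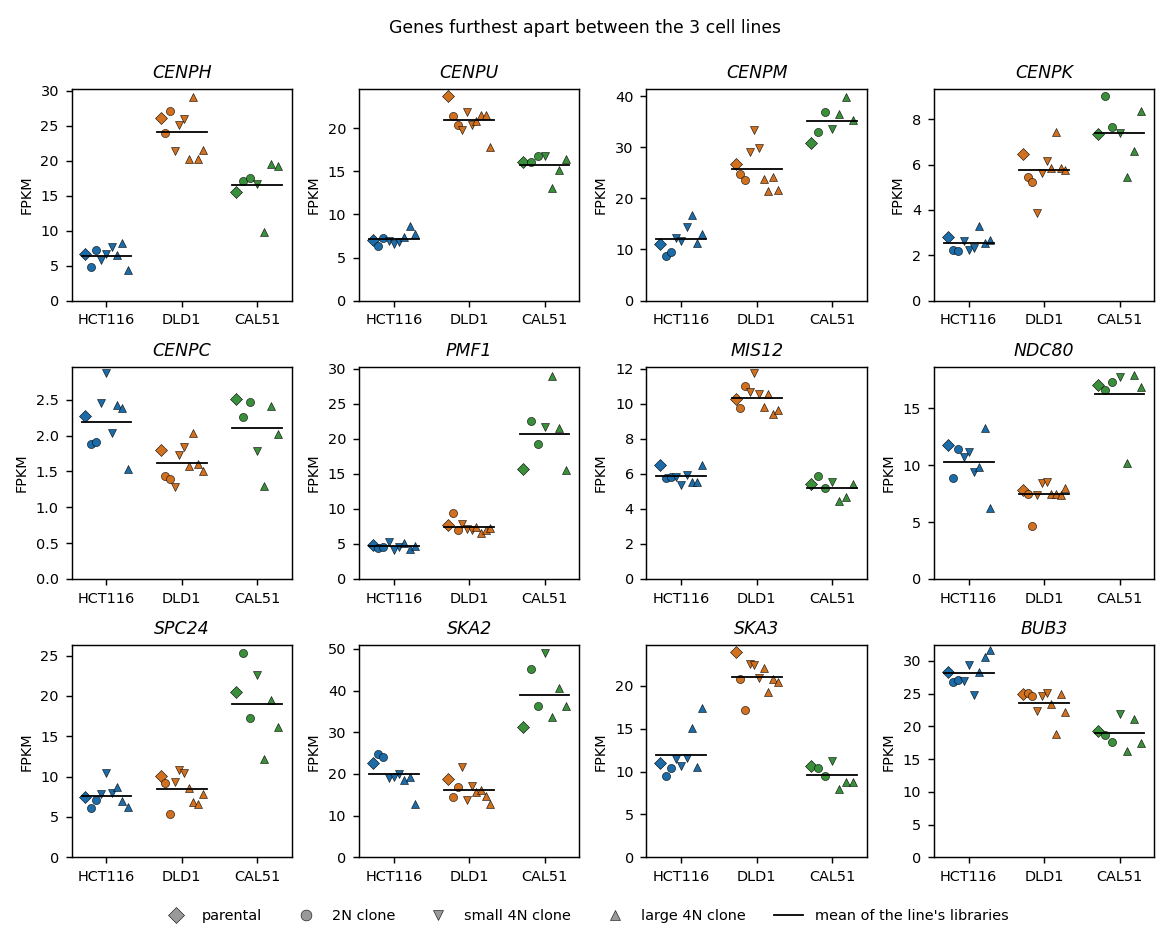
FPKM of 12 members in every library, 1 panel per gene, with symbols for the class of the library and a bar at the mean of each line's libraries. CENPH, CENPU and PMF1 separate all 3 lines without overlap, MIS12 is high in DLD1, and SPC24 and SKA2 are high in CAL51.

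The constitutive centromere network made up the largest group. Of its 13 genes, 10 rose and 1 fell in DLD1 against HCT116, 11 rose in CAL51 against HCT116, and 5 rose and 3 fell in CAL51 against DLD1. CENPH, a subunit that takes part in recruiting the outer layer, stood between 4.40 and 8.17 FPKM in HCT116 (median 6.63), between 9.76 and 19.5 in CAL51 (median 17.2) and between 20.2 and 29.1 in DLD1 (median 24.5). The 3 ranges did not overlap. The difference between DLD1 and HCT116 was 1.79 ± 0.14 (SE) in log2, with a limma adjusted p of 3.92e-09. CENPH was lower in CAL51 than in DLD1 by a log2 difference of -0.52 ± 0.16 (limma adjusted p = 0.0103).

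CENPU, which belongs to the same network and binds the kinase PLK1, had the same order. Its levels were 6.33 to 8.71 FPKM in HCT116 (median 7.03), 13.0 to 16.8 in CAL51 (median 16.1) and 17.8 to 23.8 in DLD1 (median 21.1), again without overlap, and DLD1 exceeded HCT116 by 1.41 ± 0.07 (limma adjusted p = 2.25e-12). CENPM, a partner of CENPH, CENPI and CENPK, followed another order. It stood at 8.78 to 16.8 FPKM in HCT116 (median 11.7), 21.4 to 33.4 in DLD1 (median 24.5) and 30.8 to 39.9 in CAL51 (median 35.4). DLD1 and CAL51 overlapped for CENPM, and both lay above every HCT116 library, by 1.08 ± 0.08 and 1.52 ± 0.09 in log2 (limma adjusted p = 9.22e-10 and 5.06e-11).

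CENPK was likewise lowest in HCT116, at 2.19 to 3.27 FPKM (median 2.53), against 3.84 to 7.45 in DLD1 (median 5.81) and 5.43 to 9.01 in CAL51 (median 7.40). CAL51 exceeded HCT116 by 1.29 ± 0.11 (limma adjusted p = 1e-08), and no CAL51 or DLD1 library was as low as the highest of HCT116. CENPC went the other way in DLD1. It had 1.29 to 2.04 FPKM in DLD1 (median 1.59), 1.53 to 2.88 in HCT116 (median 2.27) and 1.30 to 2.51 in CAL51 (median 2.27), with overlapping ranges, and the log2 difference of DLD1 from HCT116 was -0.29 ± 0.10 (limma adjusted p = 0.0131). Of the remaining genes of the network, CENPI, CENPL, CENPN, CENPO and CENPW rose against HCT116 in both other lines, CENPQ rose in DLD1, and CENPP and CENPT rose in CAL51.

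All 4 genes of CENP-A and its loading rose against HCT116 in both other lines. CENPA itself had 7.21 to 14.6 FPKM in HCT116 (median 12.2), 11.8 to 16.4 in DLD1 (median 14.5) and 17.6 to 22.6 in CAL51 (median 19.9), so that CAL51 lay above every library of the other 2 lines. MIS18A and OIP5, which prepare the centromere for new CENP-A, and HJURP, the chaperone that deposits it, differed between CAL51 and HCT116 by 0.77 ± 0.11, 0.65 ± 0.18 and 0.37 ± 0.11 in log2 (limma adjusted p = 5.61e-06, 0.00356 and 0.00923). CENPA shares bases on the same strand with SLC35F6, at a mean of 18.4 FPKM, and how reads over both were assigned is not given in the sources used here.

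Of the 9 outer kinetochore genes, 3 rose and 1 fell in DLD1 against HCT116, 4 rose in CAL51 against HCT116, and 4 rose and 1 fell in CAL51 against DLD1. PMF1, a subunit of the MIS12 complex, stood between 4.20 and 5.30 FPKM in HCT116 (median 4.58), between 6.51 and 9.42 in DLD1 (median 7.21) and between 15.6 and 29.035 in CAL51 (median 21.5). All 3 ranges were apart, and CAL51 exceeded HCT116 by 1.99 ± 0.12 and DLD1 by 1.40 ± 0.11 in log2 (limma adjusted p = 4.74e-11 and 5.96e-09). MIS12, of the same complex, was instead highest in DLD1, at 9.42 to 11.7 FPKM (median 10.4), against 5.39 to 6.502 in HCT116 (median 5.79) and 4.46 to 5.85 in CAL51 (median 5.39). Its difference of CAL51 from DLD1 was -0.86 ± 0.07 (limma adjusted p = 7.24e-09). DSN1 and NSL1, the other subunits of that complex, passed the threshold in 0 of the 3 comparisons, with differences from -0.02 ± 0.09 (NSL1, DLD1 minus HCT116) to 0.14 ± 0.09 (DSN1, CAL51 minus HCT116). PMF1 shares 27050 bases on the same strand with PMF1-BGLAP, which had a mean of 0.110 FPKM. How reads over both genes were assigned is not given in the sources used here.

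Within the NDC80 complex, which forms the main grip on the microtubule, SPC24 was high in CAL51. It had 12.1 to 25.3 FPKM there (median 19.5), against 6.06 to 10.5 in HCT116 (median 7.43) and 5.33 to 10.8 in DLD1 (median 8.92), and the log2 difference of CAL51 from DLD1 was 1.17 ± 0.14 (limma adjusted p = 7.67e-07). NDC80 was also highest in CAL51, at 10.2 to 18.0 FPKM (median 17.1), and lowest in DLD1, at 4.65 to 8.53 (median 7.45), with HCT116 at 6.25 to 13.3 (median 10.7). The HCT116 and DLD1 ranges of NDC80 overlapped, and their difference of -0.43 ± 0.13 (limma adjusted p = 0.00926) became -0.33 without DLD1 2N clone 2 and missed the threshold (adjusted p = 0.0519). SPC25 rose in CAL51 against both other lines, and NUF2 passed the threshold in 0 of the 3 comparisons. KNL1, the scaffold on which BUB1 and BUB3 assemble, rose in DLD1 against HCT116 by 0.38 ± 0.15 (limma adjusted p = 0.0358).

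In the SKA complex, which helps NDC80 track moving microtubule ends, SKA2 and SKA3 differed in opposite directions in CAL51 against DLD1 and in DLD1 against HCT116. SKA2 had 31.3 to 49.049 FPKM in CAL51 (median 36.4), 12.8 to 24.9 in HCT116 (median 19.3) and 12.7 to 21.7 in DLD1 (median 15.9). Every CAL51 library was above all others, by 1.34 ± 0.11 in log2 from DLD1 (limma adjusted p = 8.38e-09), and DLD1 was lower than HCT116 with overlap, by a log2 difference of -0.31 ± 0.10 (limma adjusted p = 0.0105). SKA3 had the opposite order, with 17.2 to 23.9 FPKM in DLD1 (median 20.9), 9.49 to 17.4 in HCT116 (median 10.964) and 7.91 to 11.3 in CAL51 (median 9.45). The log2 difference of CAL51 from DLD1 for SKA3 was -0.99 ± 0.09 (limma adjusted p = 4.99e-08), while SKA1 passed the threshold in 0 of the 3 comparisons.

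Among the genes that dock the checkpoint on the outer layer, all 4 rose in CAL51 against HCT116 and 2 of 4 rose in DLD1 against HCT116. ZWINT, which binds KNL1, had 22.2 to 44.9 FPKM in HCT116 (median 26.6), 40.1 to 63.5 in DLD1 (median 53.7) and 53.8 to 64.1 in CAL51 (median 59.1). SPDL1, an adaptor for dynein, was higher in CAL51 than in HCT116 by 1.18 ± 0.10 and than in DLD1 by 1.10 ± 0.10 (limma adjusted p = 9.31e-09 and 2.13e-08). ZW10 and KNTC1 are subunits of 1 complex of the corona, and ZW10 was highest in DLD1, at 14.1 to 20.3 FPKM (median 18.5), against 10.7 to 15.2 in CAL51 (median 13.2) and 8.26 to 13.1 in HCT116 (median 10.0).

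Of the 6 checkpoint signalling genes, 1 rose and 1 fell in DLD1 against HCT116, 2 rose and 1 fell in CAL51 against HCT116, and 2 rose and 2 fell in CAL51 against DLD1. BUB3, which carries BUB1 and BUB1B to KNL1, was the 1 member that was lower in CAL51 than in HCT116. It had 24.8 to 31.6 FPKM in HCT116 (median 28.2), 18.9 to 25.2 in DLD1 (median 24.6) and 16.2 to 22.0 in CAL51 (median 18.7), and the HCT116 and CAL51 ranges did not overlap (log2 difference -0.51 ± 0.08, limma adjusted p = 3.16e-05). BUB1B, the inhibitor of the anaphase-promoting complex, was higher in CAL51 than in HCT116 by 0.74 ± 0.13 (limma adjusted p = 5.85e-05), and MAD1L1, the platform for MAD2L1, by 0.32 ± 0.10 (limma adjusted p = 0.012). BUB1 rose in DLD1 against HCT116 by 0.26 ± 0.11 (limma adjusted p = 0.0485) and was lower in CAL51 than in DLD1 by -0.39 ± 0.13 (limma adjusted p = 0.0121). TTK and MAD2L1 passed the threshold in 0 of the 3 comparisons, and so did CDC20, whose median was 145 FPKM in HCT116, 175 in DLD1 and 137 in CAL51.

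Of the 4 passenger complex genes, which correct wrong attachments, CDCA8 rose against HCT116 in both other lines and INCENP rose in CAL51 against both. AURKB, its kinase, and BIRC5 passed the threshold in 0 of the 3 comparisons. SGO1, which protects centromeric cohesion, rose against HCT116 by 0.45 ± 0.09 in DLD1 and 0.59 ± 0.10 in CAL51 (limma adjusted p = 0.000256 and 6.37e-05), and its relative SGO2 did not pass in any of the 3. The motor CENPE was higher in CAL51 than in DLD1 by 0.54 ± 0.17 (limma adjusted p = 0.00853), and CENPF, a corona protein, higher in CAL51 than in HCT116 by 0.50 ± 0.20 (limma adjusted p = 0.0354). KIF2C, which takes apart microtubule ends, passed in 0 of the 3.

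A second list of 48 genes of the same pathway that are not members gave 15 higher and 7 lower in DLD1 against HCT116, 24 higher and 4 lower in CAL51 against HCT116, and 18 higher and 8 lower in CAL51 against DLD1. ZWILCH, the partner of ZW10 and KNTC1, rose in DLD1 against HCT116 by 1.46 ± 0.11 (limma adjusted p = 1.87e-09). ZW10 was likewise higher in DLD1 than in HCT116. TRIP13, which takes MAD2L1 complexes apart, was higher than in HCT116 by 0.78 ± 0.14 in DLD1 and 1.29 ± 0.16 in CAL51 (limma adjusted p = 8.44e-05 and 1.37e-06). USP44, a deubiquitinase that acts on CDC20, had the largest difference of the list, with CAL51 above HCT116 by 2.63 ± 0.14 and above DLD1 by 2.55 ± 0.14 (limma adjusted p = 1.33e-11 and 1.58e-11). Of the anaphase-promoting complex, ANAPC13 and ANAPC15 rose in CAL51 against both other lines, while ANAPC7 rose in DLD1 against both. PPP2R5B, a regulatory subunit of the phosphatase that shugoshins recruit, was lower in DLD1 than in HCT116, by -1.08 ± 0.16 (limma adjusted p = 8.06e-06).

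The chromosome on which a gene lies gives a setting for some of these differences. Between DLD1 and HCT116, the median expressed gene of chromosome 13 differed by 0.18 and that of chromosome 17 by -0.21, relative to all genes. SKA3 lies on chromosome 13 and had risen by 0.77 ± 0.08 in DLD1. SKA2 and MIS12 both lie on chromosome 17 and differed in opposite directions, by -0.31 and 0.75. The median of chromosome 2 differed by 0.17. Of its members BUB1, CENPA, CENPO and HJURP rose in DLD1, while SGO2 and SPC25 did not pass the threshold. In CAL51 against HCT116 chromosome 13 differed by 0.13, where SKA3 did not pass. Chromosome 17 differed there by -0.20, while SKA2 was higher in every CAL51 library than in any HCT116 library. CENPH and CENPK, which are among the network genes that rose against HCT116 in both other lines, both lie on chromosome 5, whose median differed from HCT116 by -0.03 in DLD1 and -0.05 in CAL51. The part of gene dosage in the differences between lines was not tested.

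Small and large 4N clones were compared to ask whether kinetochore and checkpoint genes differ with cell and nuclear size at the same ploidy. They did not pass the threshold: 0 of 49 members were called in the mean of the 3 lines (0.398% of all genes tested), 0 in HCT116 (0.445%), 0 in DLD1 (0.472%) and 0 in CAL51 (1.52%). At an unadjusted p under 0.05, 0 members were higher and 3 lower in the mean of the lines, 3 higher and 1 lower in HCT116, 0 higher and 2 lower in DLD1, and 0 higher and 4 lower in CAL51. Of all genes tested, 9.54%, 15.4%, 6.65% and 12.4% had such a p in the same order, each above the share of the members. limma voom on the recovered reads also called 0 in each. In the mean of the lines the unadjusted 95% intervals of all 49 differences lay between -0.67 and 0.37 in log2, with a median SE of 0.11, so a larger difference than that was outside the interval of each gene. Each value is relative to the mRNA of the library, and in a culture fewer cells of a phase and less RNA per cell cannot be told apart.

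**Figure D3:**
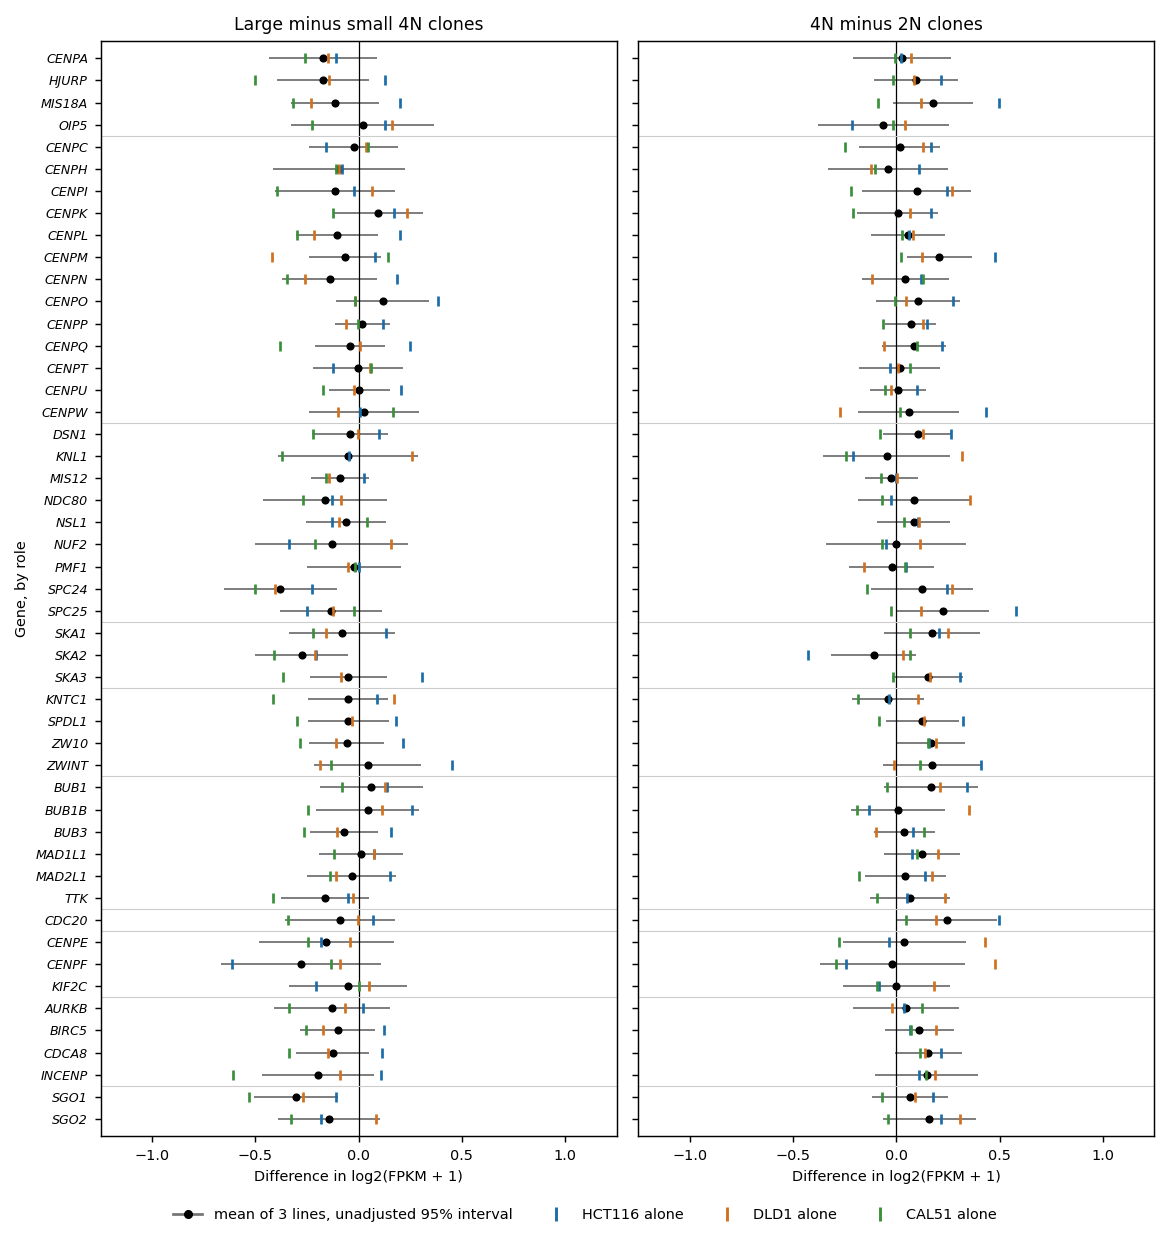
Differences in log2(FPKM + 1) of each member between large and small 4N clones (left) and between 4N and 2N clones (right). Black points with bars are the mean of the 3 lines with its unadjusted 95% interval, and coloured ticks are the lines alone. On the left 39 of 49 black points lie below 0 and on the right 39 of 49 lie above it, all within 0.38 of 0, and the coloured ticks of 1 gene often stand on both sides.

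The members leaned slightly lower in large clones, with a median of -0.07 and 39 of 49 below 0 in the mean of the lines (all genes tested: 0.00). The median was -0.02 without CAL51 and -0.14 without HCT116, and it was -0.05 without the 3 libraries named above as lowest in the most members, with 29 of 49 below 0. SGO1 had the largest statistic. In HCT116 it stood at 3.33, 4.17 and 2.92 FPKM in the small clones and 3.27, 3.66 and 2.50 in the large clones. In DLD1 it stood at 5.68, 5.82 and 4.45 in the small and 3.88, 4.41, 4.72 and 3.86 in the large clones, and in CAL51 at 6.31 in the small and 3.49, 3.91 and 4.89 in the large clones. Small and large clones overlapped for SGO1 in HCT116 and DLD1, and the mean difference was -0.30 ± 0.10 (limma adjusted p = 0.226). The other members with an unadjusted p under 0.05 were SPC24, at -0.38 ± 0.13, and SKA2, at -0.28 ± 0.11 (limma adjusted p = 0.305 and 0.391).

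In HCT116 the median member was higher in large clones by 0.08 (30 of 49 above 0), and this direction rested on single clones. Without large clone 1 the median was -0.01 (23 of 49 above 0), without large clone 3 it was 0.12 (40 of 49), and without small clone 3 it was 0.04 (26 of 49). ZWINT had the largest statistic there, at 36.6, 23.5 and 24.7 FPKM in small clones and 44.9, 29.8 and 41.9 in large clones, which overlapped (0.45 ± 0.19, limma adjusted p = 0.26). In DLD1 the median was -0.08 (35 of 49 below 0), and it was -0.04 without large clone 2 and -0.05 without small clone 3. CENPM had the largest statistic there. CENPM stood at 29.1, 33.4 and 30.0 FPKM in small DLD1 clones and 23.7, 21.4, 24.2 and 21.7 in large ones. Every large DLD1 clone was below every small one for CENPM (-0.42 ± 0.12, limma adjusted p = 0.176), while its difference was 0.08 in HCT116 and 0.14 in CAL51.

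The lean was widest in CAL51, where 43 of 49 members were lower in large clones with a median of -0.25. SGO1 again had the largest statistic (-0.53 ± 0.21, limma adjusted p = 0.276). This comparison rests on 1 small clone, which was the highest of the CAL51 libraries for 20 members, and on large clone 1, the lowest for 33. Without large clone 1 the median was -0.15, with 37 of 49 below 0. Other G2 and mitosis genes, from a list that holds no member, moved in the same way in CAL51: their median was -0.30 between large and small clones, and 30 of 34 were below 0. In HCT116 their median was -0.03, with 14 of 34 above 0, and in DLD1 it was 0.0016, with 17 of 34 above 0. The size medians of 35 S phase genes were 0.33 in HCT116 (34 above 0), -0.09 in DLD1 (7) and -0.14 in CAL51 (12). Those of 12 arrest genes were -0.52 in HCT116 (0 above 0), -0.15 in DLD1 (5) and 0.27 in CAL51 (8). The part of the cell cycle in the lean of the members was not tested.

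Without HCT116 large clone 2, 4 members passed the threshold between large and small HCT116 clones, with CENPO and SKA3 higher and CENPF and NUF2 lower. The share of all genes called rose at the same time to 6.95%. With all clones CENPF stood at 18.6, 17.4 and 19.4 FPKM in the small and at 12.3, 19.5 and 6.56 in the large clones, and the difference was -0.61 ± 0.28 (limma adjusted p = 0.302). CENPO stood at 3.95, 2.85 and 3.43 in the small and 5.47, 3.06 and 6.15 in the large clones (0.38 ± 0.16, limma adjusted p = 0.263). For both genes, large clones 1 and 3 lay outside the range of the small clones and large clone 2 did not lie with them.

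The 4N clones of both sizes, weighted equally, were compared with the 2N clones to ask what remained different after genome doubling. Again 0 of 49 members passed in the mean of the 3 lines (0.00674% of all genes tested), 0 in HCT116 (0.108%), 0 in DLD1 (0.0337%) and 0 in CAL51 (0.108%). At an unadjusted p under 0.05, 3 members were higher in the mean of the lines, 8 were higher and 1 lower in HCT116, and 0 in DLD1 and in CAL51. Of all genes tested, 5.00% had such a p in the mean of the lines, and alone HCT116 had 8.73%, DLD1 5.01% and CAL51 2.93%. limma voom on the recovered reads called 0 in each. In the mean of the lines all intervals lay between -0.38 and 0.49. The median member was higher in 4N clones by 0.07 in the mean of the lines, 0.12 in HCT116 and 0.12 in DLD1, and differed by -0.03 in CAL51 (all genes tested: between -0.01 and 0.00). The median in DLD1 was 0.03 without 2N clone 2, the library lowest for 29 members there, and 0.26 without 2N clone 1. The median in the mean of the lines was 0.03 without that DLD1 clone and 0.04 without HCT116 2N clone 1, and the median in CAL51 was -0.01 where large clone 1 was left out and -0.09 where large clone 3 was. Other cell cycle genes moved beside the members. The G2 and mitosis list had a median of 0.17 in DLD1, with 31 of 34 genes above 0, and of 0.06 in HCT116, with 20 of 34. A list of 35 S phase genes had a median of 0.22 in HCT116, with 33 of 35 above 0, and of 0.04 in DLD1, with 23 of 35. Their part in the differences of the members was not tested.

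CENPM had the largest statistic in the mean of the lines (0.21 ± 0.08, limma adjusted p = 0.955) and in HCT116. In HCT116 it stood at 8.78 and 9.51 FPKM in the 2N clones, at 12.3, 11.7 and 14.4 in small and at 16.8, 11.4 and 13.0 in large 4N clones, and the parental library had 11.1. All 6 HCT116 4N clones were above both 2N clones and the parental library for CENPM (0.48 ± 0.13, limma adjusted p = 0.206). Without large clone 2 the CENPM difference was 0.54 (limma adjusted p = 0.0458), and the share of all genes called there is not given. SPC25, of the NDC80 complex, stood at 6.69 and 7.54 FPKM in the HCT116 2N clones and 7.46 to 13.8 in the 4N clones (0.58 ± 0.18, limma adjusted p = 0.288), with a parental value of 9.90. MIS18A stood at 14.0 and 13.3 in the 2N clones, 16.2 in the parental library and 17.7 to 28.5 in the 4N clones (0.50 ± 0.15, limma adjusted p = 0.29). For MIS18A the 4N clones also lay above all 3 diploid libraries.

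In DLD1, BUB1B had the largest statistic, with 17.7 and 13.9 FPKM in the 2N clones, 19.7 in the parental library and 17.2 to 22.5 in the 4N clones, which overlapped (0.35, limma adjusted p = 1, and 0.19 without 2N clone 2). In CAL51, CENPC had the largest, with 2.27 and 2.47 FPKM in the 2N clones, 2.51 in the parental library, 1.78 in the small and 1.30, 2.42 and 2.03 in the large clones (-0.25 ± 0.17, limma adjusted p = 1, and -0.17 without large clone 1). Of the 48 pathway genes that are not members, 0 passed in these comparisons of size and ploidy, and the smallest adjusted p was that of USP44 in CAL51 4N against 2N clones (-1.12 ± 0.22, limma adjusted p = 0.063). Whether a difference of size or of ploidy was unequal between 2 lines was tested as an interaction in 6 comparisons, and 0 members passed. The smallest adjusted p was 0.131, for CENPQ between the size differences of HCT116 and CAL51, where large minus small was 0.25 and -0.38. Without the 3 libraries lowest in the most members 0 passed as well, and that of CENPQ was 0.211.

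How far each member moved with other mitotic genes was described by the correlation of its log2 level with the mean of the G2 and mitosis list over the 26 libraries, after the mean of each line was taken out. The points share library and depth. The median r was 0.46, and 21 of 49 members had an r of at least 0.5. The highest were TTK (0.91), NDC80 (0.88), CENPE (0.86), KNL1 (0.86) and SGO2 (0.84), members of the checkpoint, outer kinetochore, corona and shugoshin groups. The lowest over all libraries were PMF1 (-0.36), MAD1L1 (-0.30), CENPO (-0.21), CENPT (-0.19) and CENPN (-0.06), and none of these 5 stayed below 0 without the libraries named next. CAL51 large clone 1, low in the list (mean log2 4.24, other CAL51 libraries 4.70 to 4.86), was the highest CAL51 library for PMF1 (29.035 FPKM), CENPT (13.0), MAD1L1 (8.20) and CENPW (53.0). That clone was also narrowly the highest for CDC20, at 169.58 FPKM against 169.38 in the CAL51 small clone.

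The 2 libraries farthest from their line in the G2 and mitosis list were HCT116 large clone 3 and CAL51 large clone 1. Without them, over 24 libraries, the median r was 0.445 and 21 members had at least 0.5, of which 16 had it over all libraries too. TTK was again the highest at 0.81. The low end changed: PMF1 had 0.08, MAD1L1 0.31, CENPO 0.23, CENPT 0.32 and CENPN 0.0015, and the 4 members below 0 were MIS12 (-0.21), SKA2 (-0.21), NSL1 (-0.20) and CENPH (-0.19). CDC20 went from 0.24 to 0.75 and SPDL1 from 0.24 to 0.70, while CENPH had stood at 0.49. HCT116 large clone 3 also had the highest mean of an S phase list in its line (5.02, others 4.08 to 4.68) and the lowest of an arrest list (2.95, others 3.52 to 4.26).

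**Figure D4:**
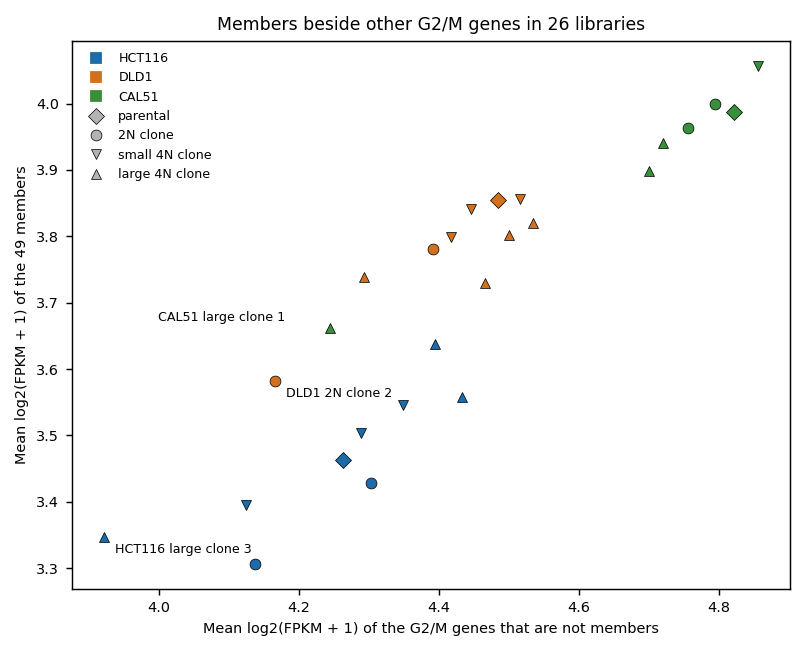
Each point is a library, with the mean log2(FPKM + 1) of other G2 and mitosis genes on the horizontal axis and of the 49 members on the vertical axis, coloured by line. CAL51 large clone 1 and DLD1 2N clone 2 are the lowest of their lines on both axes, while in HCT116 large clone 3 is the lowest on the horizontal axis (3.92) and 2N clone 1 on the vertical axis (3.31).

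Promoters of genes transcribed in G2 and mitosis often hold the cell cycle genes homology region (CHR), bound by the MuvB complex, and CCAAT boxes, bound by NF-Y. RefSeq windows of the GRCh38.p14 build, from 250 bases before to 50 after the start, were matched for 40 of the 49 members. Both strands were searched for the CHR letters TTTGAA or TTTAAA and for CCAAT, and the motifs do not contain each other. A CHR match was present in 22 of 40 members (55%), against 24.3% of 27305 promoters and 25 of 31 of the G2 and mitosis list (80.6%). CCAAT was present in 26 of 40 members (65%), against 35.7% of all promoters, and both in 14 of 40 (35%), against 9.49%. Among the matched members, 12 of 17 with an r of at least 0.5 had a CHR match and 10 of 23 below it. The median r was 0.66 with a CHR match and 0.27 without. Without the 2 farthest libraries, 14 of 18 with an r of at least 0.5 had a CHR match and 8 of 22 below it, and the median r was 0.61 with a match and 0.35 without. Some windows lay inside the deposited coordinates of their gene, as for CENPI, CENPA, NUF2, SGO2 and SPC25. The CENPI window (101100808 to 101101107 on chromosome X, gene start 101098218) held no CHR match, at an r of 0.81. Which start the cells use was not tested. A match is a description of letters, and binding was not measured. The 100 bases before the start are shown for the 3 members highest in r with a CHR match there and for the 2 lowest in r, all by r over the 26 libraries. Without the 2 farthest libraries r was 0.63 for CENPE, 0.66 for CENPA, 0.69 for INCENP, 0.08 for PMF1 and 0.31 for MAD1L1, so that PMF1 and MAD1L1 stood for the low end over all libraries only. Capitals mark CHR and CCAAT letters on either strand, so that ATTGG is CCAAT read on the other strand. They lie at chr4:103198344-103198443 on the minus strand (CENPE), chr2:26785956-26786055 on the plus strand (CENPA), chr11:62123911-62124010 on the plus strand (INCENP), chr1:156212907-156213006 on the plus strand (PMF1) and chr7:2232946-2233045 on the minus strand (MAD1L1).
CENPE: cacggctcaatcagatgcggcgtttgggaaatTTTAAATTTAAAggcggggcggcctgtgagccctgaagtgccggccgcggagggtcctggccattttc
CENPA: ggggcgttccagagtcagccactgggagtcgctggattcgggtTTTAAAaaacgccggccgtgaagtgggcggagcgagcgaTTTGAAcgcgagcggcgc
INCENP: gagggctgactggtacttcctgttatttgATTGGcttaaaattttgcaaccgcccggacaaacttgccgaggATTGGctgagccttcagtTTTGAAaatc
PMF1: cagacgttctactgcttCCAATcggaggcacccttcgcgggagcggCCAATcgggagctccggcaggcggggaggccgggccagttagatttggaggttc
MAD1L1: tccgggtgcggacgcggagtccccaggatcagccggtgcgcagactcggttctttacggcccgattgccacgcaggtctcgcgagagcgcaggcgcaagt
CENPE, CENPA and INCENP carry CHR letters in this window. PMF1 carries CCAAT letters and no CHR letters there, and MAD1L1 carries neither in these 100 bases.

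Many 4N clones had a chromosome whose genes were raised or lowered as a group. Against the parental and 2N libraries of their line, 12 of 17 4N clones held 17 chromosomes with a median difference of at least 0.2 in log2. On these lay 28 of the members, which gave 40 pairs of a gene and a clone in 11 clones. In 32 of the 40 pairs the member differed in the direction of its chromosome, as did 82.5% of all expressed genes on those chromosomes (4181 of 5065 pairs). Of 29 pairs on lowered chromosomes 23 were below 0, with a median of -0.28, and of 11 on raised ones 9 were above 0, with a median of 0.18. The 793 pairs on other chromosomes had a median of 0.03. The members thus followed their chromosomes at about the share of other genes.

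Chromosome 15, which carries BUB1B, KNL1 and OIP5, showed both directions. In HCT116 small clone 3 its median was -0.45, and BUB1B differed by -0.42, KNL1 by -0.45 and OIP5 by -0.76. In DLD1 large clone 4 its median was 0.21, and KNL1 differed by 0.53, OIP5 by 0.39 and BUB1B by 0.35. In HCT116 small clone 2 the median was -0.23, with BUB1B at -0.23, KNL1 at -0.04 and OIP5 at 0.26. OIP5 overlaps the antisense gene OIP5-AS1 (mean 7.02 FPKM). The libraries mark strand per the labels, and whether counting used it is not given in the sources used here.

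Chromosome 10, with ZWINT and BUB3, was lowered in DLD1 large clone 2 (median -0.33), where ZWINT differed by -0.40 and BUB3 by -0.35. It was raised in CAL51 large clone 2 (0.25), where they differed by 0.16 and 0.20. Chromosome 11 was raised in the same CAL51 clone (0.27), with INCENP at 0.18 and ZW10 at 0.06. All of these lay on the side of their chromosome. On chromosome 4, lowered in the CAL51 small clone (-0.20), CENPC differed by -0.39, MAD2L1 by -0.29, CENPE by -0.28 and CENPU by -0.06.

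On chromosome 5, lowered in DLD1 small clone 1 (-0.29), CENPK differed by -0.45, CENPH by -0.23 and SPDL1 by -0.03. The same chromosome was raised in HCT116 large clone 3 (0.28), where SPDL1 differed by 0.61, CENPK by 0.03 and CENPH by -0.49. SGO1 differed by -0.22 in DLD1 large clone 1, where chromosome 3 was at -0.28. In CAL51 large clone 1, chromosomes 13 and 18 were lowered (-0.32 and -0.24) with SKA3 at -0.47, SKA1 at -0.38 and NDC80 at -0.84, and chromosome 19 was raised (0.27) with SPC24 at -0.87. That clone was low in most members whatever their chromosome.

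Some members stood against their chromosome. Chromosome 1 was lowered in HCT116 large clone 1 (-0.30), where CENPF differed by -0.56, NUF2 by -0.39, KIF2C by -0.28 and CENPL by -0.17, but CDC20 by 0.50, CDCA8 by 0.24, PMF1 by 0.07 and NSL1 by 0.04. Chromosome 7 was lowered in DLD1 large clones 2 and 4 (-0.30 and -0.29), where MAD1L1 differed by 0.10 and -0.04. These values are 1 clone each and carry no test.

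**Figure D5:**
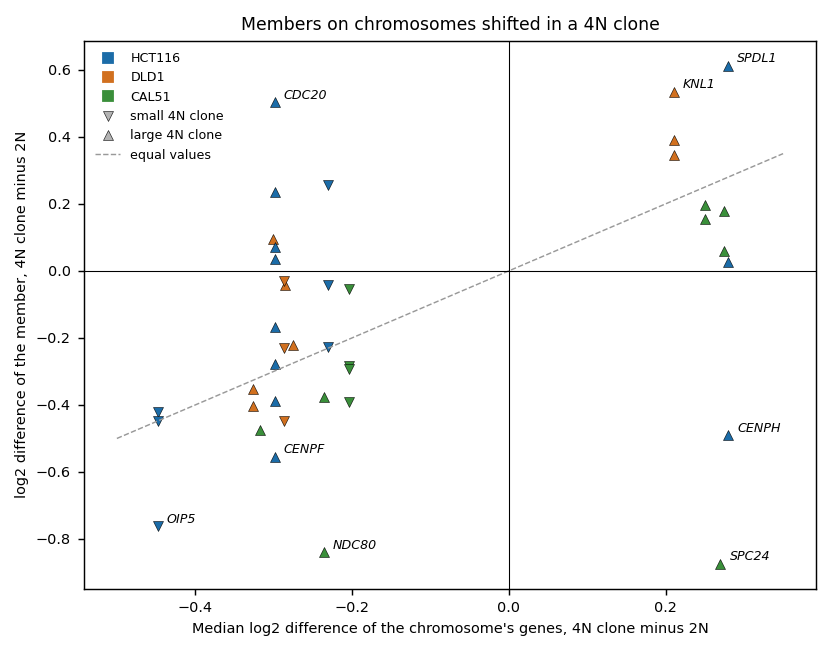
Each point is 1 member in 1 4N clone, for the 40 pairs on a shifted chromosome. The horizontal axis gives the median log2 difference of the chromosome and the vertical axis that of the member, both against the 2N libraries of the line, and the dashed line marks equal values. Points lie mostly on the side of their chromosome (32 of 40), with CDC20, CENPH and SPC24 the farthest on the other side.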

How the data were processed

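Per the labels, poly-A mRNA was sequenced from directional dUTP libraries. Per the submitters' processing notes, fastp, HISAT2 version 2.0.5 (GRCh38), featureCounts version 1.5.0-p3 and DESeq2 were used. The FPKM values were used as the authors deposited them. Multiplying by gene length and dividing by a factor per library gave reads that were whole to within 0.01 for 100% of values, which gave the depths. Genes with at least 1 FPKM in 3 libraries (14835) were fitted as log2(FPKM + 1) by limma (version 3.58.1, under R version 4.3.3) with 12 group means, an intensity trend, 14 residual degrees of freedom and two-sided tests adjusted by Benjamini-Hochberg. A fold change on this scale understates that of low genes. CAL51 had only 1 small clone, and its spread was taken from the other groups. Replicates are clones, so p-values measure the spread between clones. The method was tested on simulated data. The changes planted there were larger than the size and ploidy differences of the members. Detection of differences as small as those was not tested. Chromosome medians used genes with a line mean of at least 5 FPKM. Python version 3.11.15 was used for descriptions.

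Every member was accounted for by role. Full values went to members past the threshold for size or ploidy, or to the largest statistic where none passed, to the 3 highest and 3 lowest past it per pair of lines, to the 2 highest and 2 lowest levels, and to members on shifted chromosomes. Members and lists were chosen with earlier results of these data known. SPC24, SKA2, CENPF, CENPO, SPC25 and MIS18A in the comparisons of size and ploidy, and members named in other roles, were added after their values were seen.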

Additional observations from a re-analysis of the deposited data

Results flagged for a closer look

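The 4 large DLD1 clones were the only group of 4 or more libraries in which 1 value could be set against the spread of the rest. For 7 of the 49 members, the gap between the highest or lowest clone and its neighbour was large for the range of the 4 (Dixon's test at 95%), and chance gives about 1 in 20. In clone 4, MAD2L1 was at 18.9 FPKM (others 21.4 to 21.8) and NDC80 at 8.02 FPKM (others 7.38 to 7.45). In clone 2, ZWINT was at 40.1 FPKM (others 52.2 to 54.4), and its chromosome 10 was lowered in that clone by a median of -0.33 in log2. In the same clone CENPH was at 29.1 FPKM (others 20.2 to 21.6) and CENPK at 7.45 FPKM (others 5.76 to 5.87). In clone 1, SPDL1 was at 8.15 FPKM (others 6.498 to 6.603) and CENPE at 5.07 FPKM (others 4.49 to 4.54). The causes were not tested.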

How the results depend on the processing

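The pseudocount, the filter, median-ratio rescaling, limma voom on recovered reads, a fit without trend, each line fitted alone, parental libraries counted as 2N and the mean without each line all left 0 members past the threshold for size and ploidy. Without HCT116 large clone 2 alone, 4 members passed between large and small HCT116 clones and 1 between 4N and 2N HCT116 clones, so leaving out 1 clone gave 0 to 4 and 0 to 1 in these, and 0 in the other 6 comparisons of size and ploidy. The cause was not tested. Between lines, leaving out 1 clone gave 22 to 28 members for DLD1 against HCT116, 30 to 35 for CAL51 against HCT116 and 25 to 28 for CAL51 against DLD1, and the other settings 22 to 30, 30 to 33 and 24 to 29. The single CAL51 small clone was never left out, here or for size and ploidy, since its class held no other clone. Without the 3 libraries lowest in most members, chosen after the data were seen, 30 (26 higher, 4 lower), 33 (32 and 1) and 29 (20 and 9) passed, and 0 for size and ploidy. Apart from size in HCT116 without large clone 2, the share of all genes called in these settings is not given. These counts are therefore not results about the members. With all libraries that share was 63.7%, 64% and 61% between lines, in the order above. In HCT116 it was 0.445% for size and 0.108% for ploidy. Of the 24 results for members named by rule in the comparisons of lines, size and ploidy, 0 reversed in any setting. Values of single clones, and members added after their values were seen, were not part of that count. Taking out the median of the shifted chromosome moves a value of a single clone by exactly that median, chosen to be at least 0.2 in size. For 29 of 40 values the median exceeded 1 SD of the member within lines, pooled over the 3 lines, and for 11 it did not. These counts do not use the value of the member in the clone and are not a test. Some values changed sign, such as SGO1 in DLD1 large clone 1 (-0.22 to 0.05). Others kept it, such as BUB1B in DLD1 large clone 4 (0.35 to 0.14). The lowest count of a member was 108 reads.

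Clone numbers were not taken to pair the samples, since not every pair with the same number correlated above 0.1: over 16 such pairs in a line, the correlation of deviations was -0.06 to 0.21 (median 0.06), with 6 over 0.1. Over 37 pairs with different numbers it was -0.21 to 0.16 (median -0.01), with 2 over 0.1. By line, pairs with the same number had 0.03 to 0.20 in HCT116, 0.21 and 0.18 in CAL51 and -0.06 to 0.09 in DLD1. In a group of 2 clones the deviations mirror each other, so these values are not independent. A link between clones of the same number in HCT116 or CAL51 was therefore not excluded. With the replicate block, 0 members passed for size and ploidy, and the median difference of large from small clones was -0.08 in the mean of the lines and -0.36 in CAL51. Blocks lie within lines, so no paired value exists between lines.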
